A study of Mus musculus with 45 samples.

Results

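The genes described here encode the nuclear subunits of the mitochondrial respiratory chain and of the ATP synthase, together with a few factors that carry the same gene names. They were taken from the count table by symbol (Nduf, Sdh, Uqcr, Cox and Atp5 names, without the Cox4 genes, whose names the rule does not match). The 9 symbols with -ps, a mark used in names of pseudogenes, were left out. Among them was Ndufb1-ps, which is given below with the chain genes that the rule leaves out. Of 55450 rows in the table, 105 matched by name, and 85 of the 96 left had a mean of at least 1 CPM (counts scaled to a common library size) over all samples. They comprise 37 genes of complex I (7 core and 30 accessory subunits), 8 assembly factors of complex I, 4 genes of complex II, 8 of complex III, 10 of complex IV, 16 of complex V and 2 genes that are not fixed subunits (Cox7a2l and Atp5s). Ndufa4 was counted with complex IV, where its protein is found.

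RNA-sequencing was performed on cells sorted from the draining popliteal lymph nodes of footpad-immunized WT and S1PR4-/- mice. The knockout strain (B6.129P2-S1pr4tm1Dgen/J) had been backcrossed at least 10 times onto C57/BL6 and lacks the receptor in every cell of the body, the WT mice were littermates, and both sexes were used at 8 to 12 weeks of age. All mice received 20 µl of an IFA emulsion with 50 µg OVA and 5 µg LPS, so no unimmunized group is compared here. Germinal center (GC) B cells (B220+ GL7+ Fas+; 6 WT and 6 S1PR4-/- samples) and non-GC B cells (B220+ GL7- Fas-; 5 WT and 4 S1PR4-/-) were taken on day 9. TFH cells (TCRβ+ CD4+ PD1+ CXCR5+; 6 and 6) and non-TFH CD4+ T cells (PD1- CXCR5-; 6 and 6) were taken on day 6, so lineage and day cannot be told apart.

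The respiratory chain passes electrons from NADH (complex I) and succinate (complex II) through complex III to oxygen at complex IV, and complex V uses the proton gradient so made to produce ATP. Most subunits are encoded in the nucleus and imported, while a small set is encoded in mitochondrial DNA. Lymphocytes that leave the resting state raise both glycolysis and mitochondrial respiration, and GC cells are among the fastest dividing cells of the body.

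Library totals ran from 26299429 to 45548215 expected counts. S1pr4 counts were 0 to 40 in the S1PR4-/- libraries and 505 to 6305 in the WT libraries. Sorting markers followed the labels: the summed level of 8 TFH markers was 2648 to 4086 CPM in TFH and 203 to 482 CPM in non-TFH libraries, and that of 8 GC B markers was 1578 to 2791 CPM in GC B and 135 to 192 CPM in non-GC B libraries. The summed level of 16 proliferation genes was 4060 to 7578 CPM in WT GC B, 337 to 427 CPM in WT non-GC B, 3768 to 5424 CPM in WT TFH and 486 to 833 CPM in WT non-TFH libraries, so proliferation genes were higher in both GC populations, and their part in the differences below was not tested. Markers of plasma cells moved with the GC B gate too, at 4077 to 9241 CPM in WT GC B and 497 to 865 CPM in WT non-GC B libraries. B and plasma cell markers were also higher in the TFH gate. In WT mice 12 B cell markers summed to 430 to 874 CPM in TFH and 253 to 305 CPM in non-TFH libraries. Plasma cell markers summed to 290 to 676 CPM and 113 to 163 CPM in the same order. The part of such cells in the differences below was not tested. In bulk samples, fewer cells of a type and less RNA per cell cannot be told apart. One library, S1PR4-/- non-TFH replicate 1, had the highest sums of its group both for the respiratory chain and for proliferation genes (1199 CPM). It was also the highest of its group for TFH markers (482 CPM, others 203 to 354), GC B markers (154 CPM, others 95.9 to 113) and plasma cell markers (217 CPM, others 134 to 147). Without it the summed subunit level of that group was 8445 to 8878 CPM with a median of 8641, and the member counts that use it are also given below without it.

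The summed level of the 75 subunit genes of complexes I to V was higher in both GC populations than in the cells outside the GC (TMM-normalized CPM). In WT GC B cells it was 11567 CPM in the lowest library, 12361 at the median and 13883 in the highest, against 6579, 6913 and 7138 CPM in WT non-GC B cells. WT TFH cells had 10954, 11723 and 12706 CPM and WT non-TFH cells 7725, 9099 and 9956 CPM. The groups did not overlap in either lineage, and the ratio of the medians was 1.79 in B cells and 1.29 in T cells. The order of the WT medians was GC B, TFH, non-TFH and non-GC B, and only the first 2 neighbours overlapped in their ranges. The S1PR4-/- groups had nearly the same medians, at 12410 CPM in GC B, 6823 in non-GC B, 11930 in TFH and 8719 in non-TFH cells, with ranges that overlapped those of their WT counterparts.

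**Figure D1:**
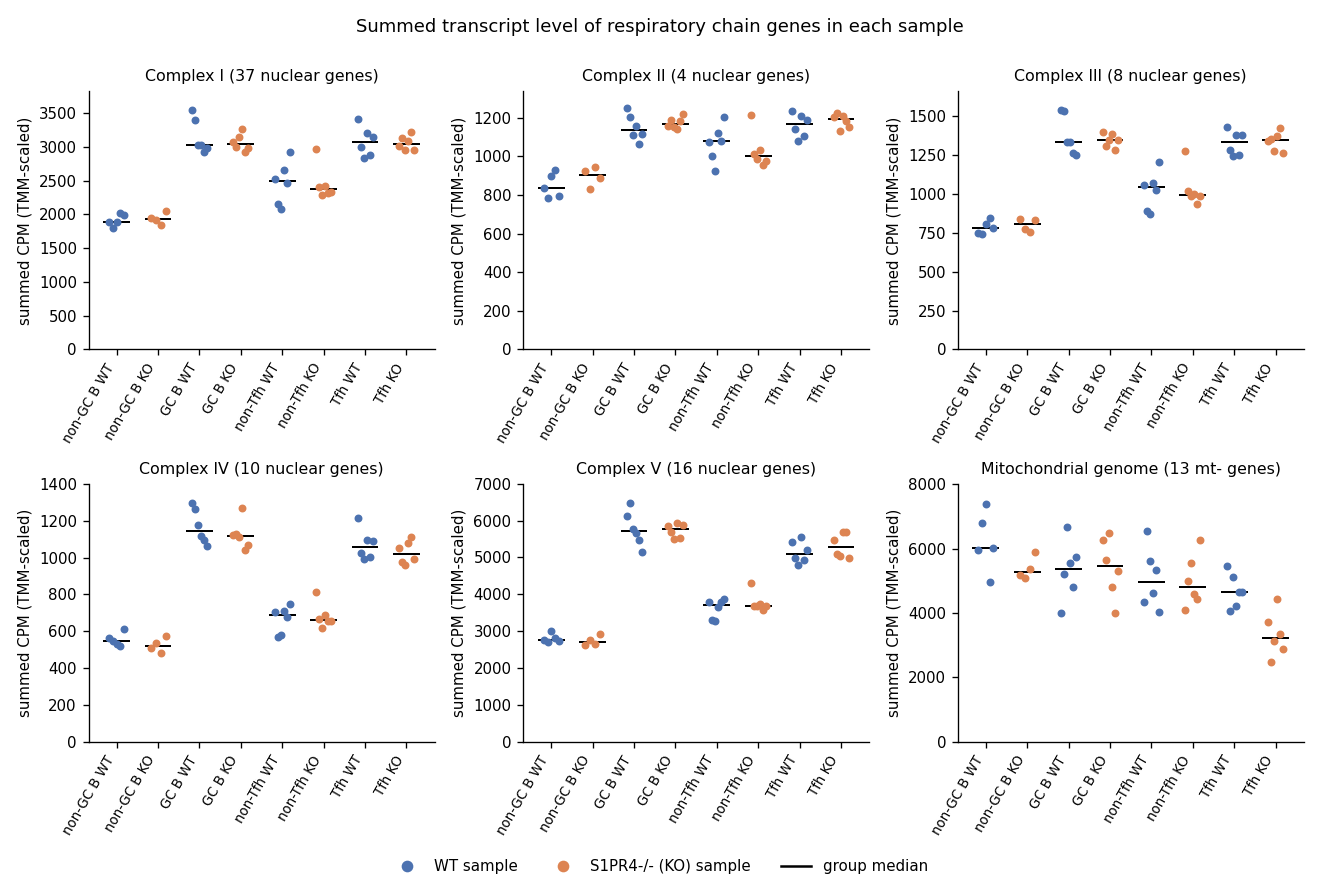
Summed level of the subunit genes of each complex, and of the genes of the mitochondrial genome in the last panel (y axes, TMM-normalized CPM, each starting at 0), in the 8 groups (x axes; Tfh stands for TFH and KO for S1PR4-/-), with 1 point for each library and a line at each group's median. All 5 complexes were higher in GC B than in non-GC B libraries, and the separation was smallest for complex II in T cells.

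The complexes did not move by the same factor. In B cells the median sum of complex IV was 2.09 times as high in WT GC B as in WT non-GC B cells, and that of complex V 2.06 times. The ratio was 1.72 for complex III, 1.60 for complex I and 1.36 for complex II. In T cells the order was alike at lower ratios, with 1.53 for complex IV, 1.37 for complex V, 1.28 for complex III, 1.23 for complex I and 1.08 for complex II. In T cells the ranges overlapped for complex I, at 2840 to 3408 CPM in WT TFH and 2087 to 2928 CPM in WT non-TFH libraries, and for complex II, at 1079 to 1234 CPM and 924 to 1203 CPM. Those of complexes III, IV and V did not. These sums are dominated by the most abundant genes. Per kilobase of exon, the highest mean levels over all libraries were those of Atp5b (371 CPM per kb) and Atp5a1 (368 CPM per kb), the catalytic beta and the alpha subunit of complex V.

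The promoters of the members were searched for 4 motifs that are known to recur in promoters of respiratory chain genes. RefSeq (GRCm38.p6) gave a promoter for 70 of the 85 members, 75 promoters in all, each from 250 bases before to 50 bases after the gene's start. On either strand, GCGCANGCG (NRF1) was found in 23 of them (30.7%), against 6.25% of all 32851 promoters. CCGGAAG (ETS factors, among them GABP) was found in 18 (24.0%, against 8.86%), AAGATGGCG (YY1) in 8 (10.7%, against 1.40%) and TCAAGGTCA (ERR) in 2 (2.67%, against 0.423%). At least 1 of them was in 40 promoters (53.3%, against 15.2%), and the letters of these motifs do not contain one another. The set of all promoters was not matched to the members for expression or base composition, so the excess cannot be assigned to respiratory chain genes as such. The 4 promoters below belong to the gene with the largest difference in both lineages (Atp5g3), to a pair of genes of 1 complex that went apart (Sdhb and Sdha) and to the gene that moved in opposite directions in B and T cells (Cox7a2l). Capitals mark motif matches on either strand, and each sequence is the gene's own strand from 5′ to 3′. The Atp5g3 promoter (chr2:73911277-73911576, minus strand) holds ERR and NRF1 letters, both in reverse. The Sdhb promoter (chr4:140961021-140961320, plus strand) holds ETS letters, the Sdha promoter (chr13:74350191-74350490, minus strand) holds 3 NRF1 matches, and the Cox7a2l promoter (chr17:83514284-83514583, minus strand) holds none of these letters. RefSeq and GENCODE place some starts apart. The Cox7a2l promoter lies at the start shared, within 50 bases, by 2 of the gene's 4 GENCODE transcripts, while 1 longer transcript starts 2997 bases upstream, and the Sdhb start lies 68 bases inside the GENCODE start.
Atp5g3: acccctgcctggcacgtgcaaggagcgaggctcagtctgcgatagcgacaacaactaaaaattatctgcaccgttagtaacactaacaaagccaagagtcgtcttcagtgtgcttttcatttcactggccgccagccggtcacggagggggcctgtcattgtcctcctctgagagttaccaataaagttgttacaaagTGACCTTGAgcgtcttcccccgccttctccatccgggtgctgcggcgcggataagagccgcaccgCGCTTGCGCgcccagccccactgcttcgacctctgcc
Sdhb: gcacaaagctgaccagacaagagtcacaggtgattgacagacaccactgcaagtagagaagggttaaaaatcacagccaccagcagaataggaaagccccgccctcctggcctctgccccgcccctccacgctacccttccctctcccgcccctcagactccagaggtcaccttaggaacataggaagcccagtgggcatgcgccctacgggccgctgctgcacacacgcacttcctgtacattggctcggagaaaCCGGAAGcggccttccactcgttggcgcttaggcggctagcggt
Sdha: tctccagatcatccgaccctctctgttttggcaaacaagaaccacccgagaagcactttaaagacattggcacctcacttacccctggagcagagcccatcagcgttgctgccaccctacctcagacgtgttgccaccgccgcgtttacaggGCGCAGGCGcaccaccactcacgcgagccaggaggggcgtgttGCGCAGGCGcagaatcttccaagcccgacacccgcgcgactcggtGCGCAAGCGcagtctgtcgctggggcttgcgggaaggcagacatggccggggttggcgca
Cox7a2l: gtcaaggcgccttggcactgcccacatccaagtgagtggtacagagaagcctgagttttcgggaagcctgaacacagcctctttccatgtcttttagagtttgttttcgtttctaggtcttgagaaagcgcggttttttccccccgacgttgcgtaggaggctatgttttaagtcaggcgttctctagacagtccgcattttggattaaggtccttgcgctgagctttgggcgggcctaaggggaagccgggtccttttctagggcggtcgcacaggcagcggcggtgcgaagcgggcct

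Respiratory chain genes were higher in WT GC B than in WT non-GC B cells in every complex. Of the 85 members, 76 were higher and 0 lower (edgeR, FDR under 0.05 over 13324 genes), where 34.3% of all genes tested were higher and 32.9% lower. The median log2 difference of the members was 0.85 (1.80-fold), from -0.10 to 1.55, and that of all genes tested was near 0 (0.01). Past 1.5-fold were 65 members, against 24.8% of all genes, and for 74 members every GC B library lay above every non-GC B library, against 27.5% of all genes. Lower calls were 0 in edgeR, DESeq2 and limma voom alike, and 77 members had an unadjusted p under 0.05. The 9 members not called were 4 complex I subunits (Ndufa6, Ndufb4, Ndufb4c and Ndufs7), 3 of its assembly factors (Ndufaf4, Ndufaf5 and Ndufaf8), Sdha and Atp5s.

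**Figure D2:**
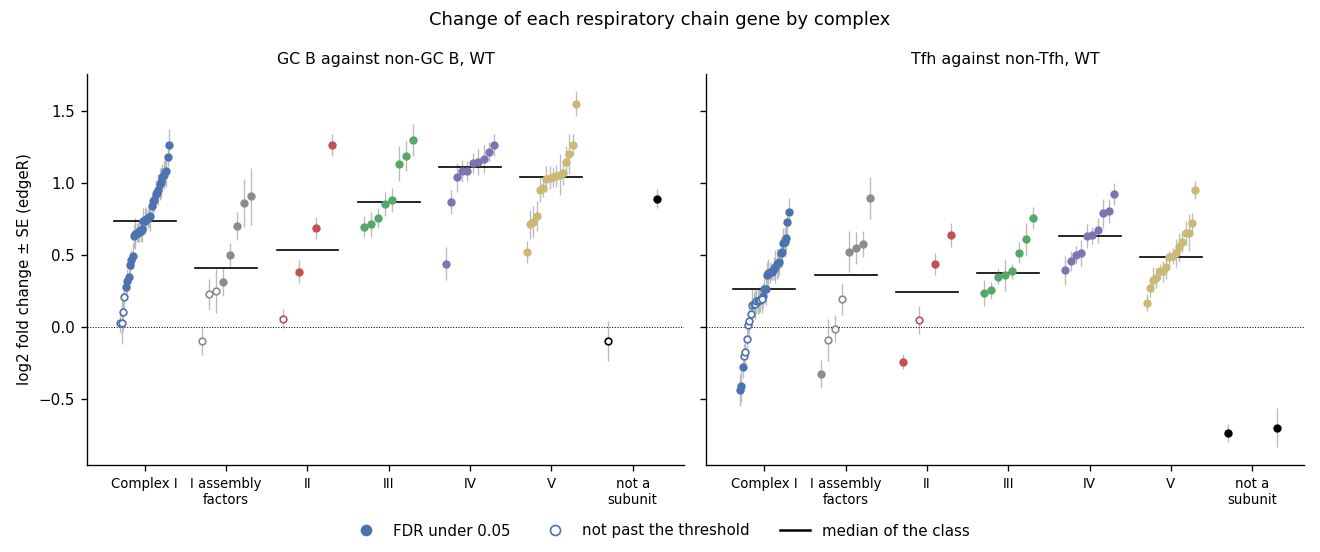
Log2 difference of each of the 85 members with its SE as a thin line (y axis) by complex (x axis), for GC B against non-GC B cells and TFH against non-TFH cells in WT mice; filled points passed FDR under 0.05 in edgeR and black lines mark each class's median. Complexes III, IV and V lie wholly above 0 in both lineages, and complexes I and II spread from about 0 upwards in B cells and across 0 in T cells.

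The ATP synthase held the gene with the largest difference. All 16 genes of complex V rose, with a median of 1.04. Atp5g3 (ENSMUSG00000018770.9, chr2:73908447-73911326, minus strand, mm10) is 1 of 3 genes that encode the same mature c subunit, which forms the rotor ring. Its level was 248, 294 and 346 CPM in WT GC B cells (lowest, median and highest library) and 102, 95.4, 109, 96.7 and 103 CPM in the 5 WT non-GC B libraries. The groups did not overlap, and the log2 difference was 1.55 (SE 0.086, edgeR FDR 1.66e-08). The other c genes rose as well, Atp5g1 by 1.15 (SE 0.11) and Atp5g2 by 1.06 (SE 0.14), both with non-overlapping groups. Per kilobase, the mean level over all libraries was 104 CPM for Atp5g3, 24.7 for Atp5g2 and 20.8 for Atp5g1. Of the words of 31 bases in Atp5g2, 40.2% also occur in other genes, so its counts are less certain than those of Atp5g3. Atp5j, the coupling factor F6 of the stalk, rose by 1.26 (SE 0.071). The lowest differences in this complex were those of 2 subunits of the central stalk, at 0.71 for Atp5e (epsilon) and 0.52 for Atp5d (delta).

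Cytochrome c oxidase moved as a block, with 10 of 10 genes of complex IV higher and a median of 1.11. Cox6b1, which faces cytochrome c, had 146, 170 and 188 CPM in WT GC B cells and 71.4, 66.3, 68.6, 66.6 and 78.1 CPM in the WT non-GC B libraries, a log2 difference of 1.26 (SE 0.075, edgeR FDR 2.79e-08). Cox5a, a matrix-side subunit, had 125, 128 and 144 CPM against 59.4, 57.8, 56.4, 49.9 and 60.7 CPM, a difference of 1.21 (SE 0.070). Neither gene had overlapping groups. The ubiquitous isoforms Cox7b, Cox6a1, Cox7a2 and Cox8a rose by 1.16, 1.08, 1.04 and 0.87, and Ndufa4 by 1.14. Cox7c had the smallest difference, 0.44 (SE 0.12). The isoforms that are typical of muscle or testis lay under 1 CPM on average (Cox6a2 0.272, Cox6b2 0.234, Cox7a1 0.199, Cox7b2 and Cox8c 0.000697 and Cox8b 0 CPM), far under their ubiquitous forms. Cox6a2 reached up to 3.48 CPM in WT and up to 1.55 CPM in S1PR4-/- non-GC B libraries, where Cox6a1 had 90.4 to 108 CPM.

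Complex III rose with 8 of 8 genes and a median of 0.86. Uqcr10, a small subunit, had 41.7, 51.9 and 62.4 CPM in WT GC B cells and 21.1, 21.9, 19.0, 20.8 and 22.7 CPM in the WT non-GC B libraries, a difference of 1.297 (SE 0.11, edgeR FDR 5.56e-07) with no overlap. Uqcrq followed at 1.18, and the lowest members were Uqcrc1 (0.71) and Uqcrb (0.69).

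Complex I was less even. Of its 37 subunit genes 33 rose, with a median of 0.73, among them 6 of 7 core subunits (median 0.65) and 27 of 30 accessory subunits (median 0.76). Ndufs5, an accessory subunit of the membrane arm, had 51.8, 58.8 and 79.6 CPM in WT GC B cells and 24.3, 24.2, 26.2, 25.1 and 29.3 CPM in WT non-GC B cells, a difference of 1.26 (SE 0.11, edgeR FDR 7.11e-07). Ndufa1 rose by 1.18 (SE 0.073). Ndufs7, the core subunit with the last iron-sulfur cluster before quinone, lay at 99.6, 110 and 128 CPM in GC B cells and 110, 106, 108, 117 and 109 CPM in non-GC B cells, so these groups overlapped, with a difference of 0.03 (edgeR FDR 0.735). Ndufb4 had 0.03 as well (FDR 0.875). Of the 8 assembly factors 5 rose, with a median of 0.40. Their highest were Ndufaf2 (0.91, SE 0.20) and Ndufaf6 (0.86), while Ndufaf8 (0.22, FDR 0.0855) and Ndufaf4 (-0.10, FDR 0.39) did not pass.

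Succinate dehydrogenase, which belongs both to the citrate cycle and to the chain, was split. Sdhb (ENSMUSG00000009863.14, chr4:140961203-140979193, plus strand), the iron-sulfur subunit, had 299, 321 and 384 CPM in WT GC B cells and 129, 133, 145, 148 and 133 CPM in the WT non-GC B libraries. The groups lay far apart, at a log2 difference of 1.26 (SE 0.077, edgeR FDR 3.49e-08). Sdha (ENSMUSG00000021577.14, chr13:74322254-74350280, minus strand), the flavoprotein that oxidizes succinate, had 544, 574 and 590 CPM against 551, 501, 584, 607 and 505 CPM. These groups overlapped almost wholly, at 0.06 (SE 0.064, edgeR FDR 0.451). The membrane anchors lay between them, with Sdhd at 0.69 (SE 0.078) and Sdhc at 0.38 (SE 0.078), both called. Per kilobase the mean level over all libraries was 147 CPM for Sdha, 130 for Sdhd, 112 for Sdhb and 19.0 for Sdhc.

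**Figure D3:**
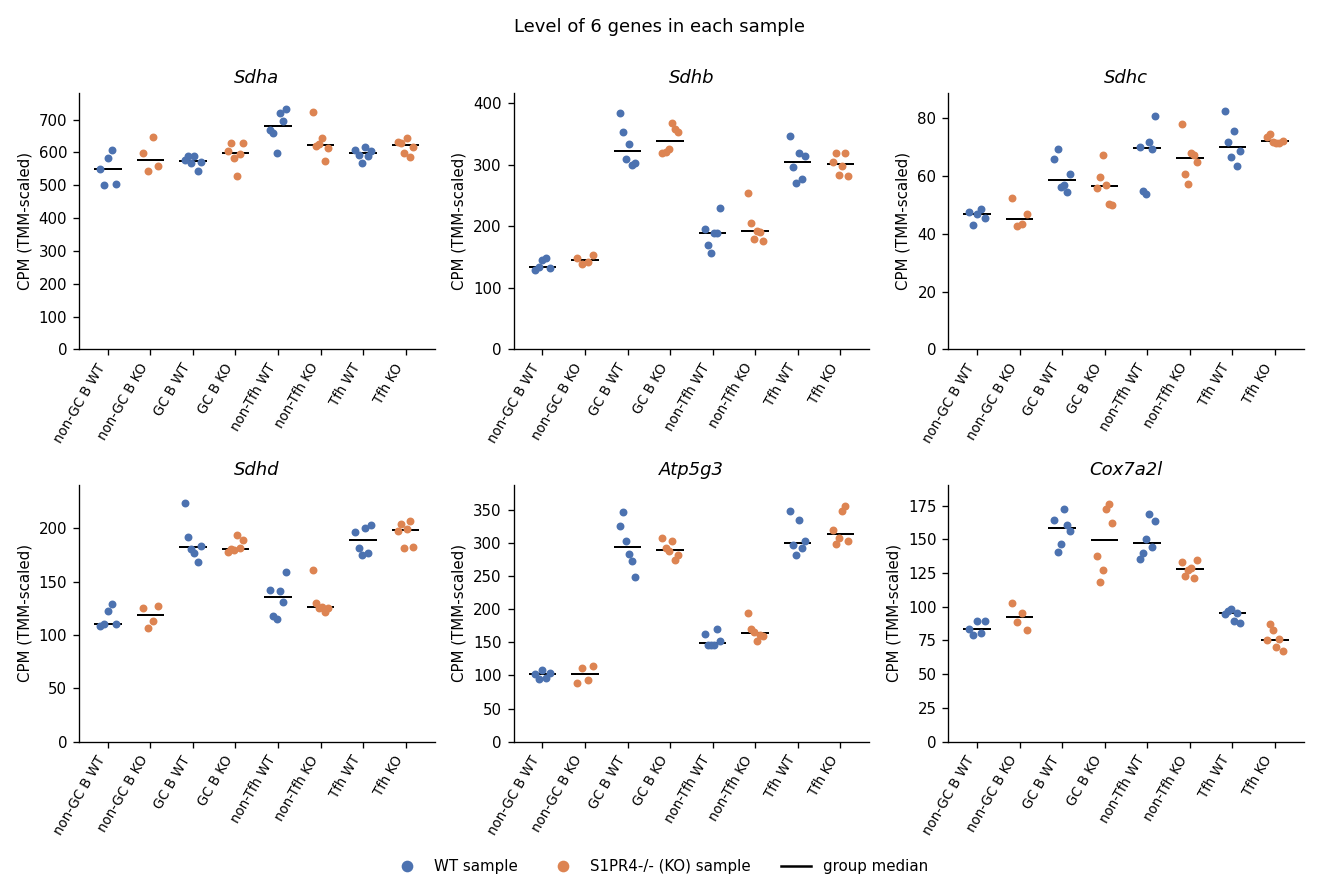
Levels (y axes, TMM-normalized CPM, each starting at 0) of single members in the 8 groups (x axis), with 1 point for each library and a line at each group's median. Atp5g3 and Sdhb are higher in both GC populations, Sdha lies at a like level in the B cell groups, and Cox7a2l is higher in GC B but lower in TFH cells.

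The same comparison in S1PR4-/- mice gave 75 members higher and 0 lower, where 33.6% of all genes tested were higher and 31% lower. The median was 0.75, and 75 members were higher with no overlap of the groups, against 29% of all genes tested. Plasma cell markers summed to 2098 to 18741 CPM in S1PR4-/- GC B and 556 to 630 CPM in S1PR4-/- non-GC B libraries, with the top value in GC B replicate 3. Without that library 73 members were higher and 0 lower, with a median of 0.75, and the part of plasma cells in the other libraries was not tested. In DESeq2 and limma voom 0 members were lower, and 75 members had an unadjusted p under 0.05 in edgeR. Both genotypes called 73 members higher. The medians by complex were 1.07 for complex IV, 1.02 for complex V, 0.79 for complex III, 0.67 for complex I and 0.46 for complex II. Atp5g3 had a difference of 1.503 and Sdhb of 1.22, and Sdha again did not pass (0.01, edgeR FDR 0.906).

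TFH cells also had higher levels of most respiratory chain genes than non-TFH cells, by smaller factors. In WT mice 60 members were higher and 7 lower, where 34.8% of all genes tested were higher and 33.9% lower. The median of the members was 0.38, from -0.74 to 0.95, and 19 members were higher by more than 1.5-fold, against 22.8% of all genes. The groups did not overlap for 50 members in the higher direction, against 27.5% of all genes, and for 1 in the lower, Cox7a2l, against 20.5%. Complexes III, IV and V were called higher in every gene (8 of 8, 10 of 10 and 16 of 16), with medians of 0.37, 0.63 and 0.49. In complex I 20 of 37 genes were higher and 3 lower (median 0.26), in its assembly factors 4 of 8 were higher and 1 lower (0.36), and in complex II 2 of 4 were higher and 1 lower (0.24).

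Atp5g3 led again, with 281, 301 and 349 CPM in WT TFH and 146, 149 and 171 CPM in WT non-TFH cells. The groups did not overlap, and the difference was 0.95 (SE 0.064, edgeR FDR 7.75e-09). Atp5g2 rose by 0.72 and Atp5g1 by 0.55, and the smallest differences among the ATP synthase genes were those of Atp5h (0.27) and Atp5l (0.17, FDR 0.0199). In complex IV, Cox5a had 117, 125 and 148 CPM in TFH and 57.8, 65.5 and 72.2 CPM in non-TFH cells, a difference of 0.92 with no overlap. Cox8a (0.80), Cox6b1 (0.67), Cox7a2 (0.63) and Cox7b (0.50) rose too, and the lowest were Ndufa4 (0.46) and Cox6a1 (0.39). In complex III, Uqcr10 (0.75) and Uqcrq (0.61) had the largest differences and the core proteins Uqcrc2 (0.25) and Uqcrc1 (0.23, FDR 0.0326) the smallest. The Uqcrc1 call was lost when any of 6 single libraries was left out, and the Atp5l call without WT non-TFH replicate 5 (FDR 0.0506).

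In complex I of T cells, the iron-sulfur subunit Ndufs8 (0.79) and the zinc-binding Ndufs6 (0.73) rose most. The 3 genes that fell were Ndufb4c (-0.44), Ndufb4 (-0.41) and Ndufa6 (-0.28). Every 31-base word of Ndufb4c also occurs in Ndufb4, while most of Ndufb4 is its own (19.1% of its words occur elsewhere), so the counts of Ndufb4c are uncertain. Among the assembly factors Ndufaf2 (0.89) and Ndufaf7 (0.58), a methyltransferase, rose, Ndufaf8 lay at -0.09 and Ndufaf4 fell (-0.33, edgeR FDR 0.00848). In complex II, Sdhb had 270, 305 and 347 CPM in WT TFH and 157, 189 and 230 CPM in WT non-TFH cells, a difference of 0.63 (SE 0.085) with no overlap. Sdha went the other way, with 567, 599 and 615 CPM against 598, 682 and 733 CPM. Its groups overlapped, and the difference was -0.24 (SE 0.050, edgeR FDR 0.000574). Sdhd rose by 0.44, and Sdhc lay at 0.04 (FDR 0.692).

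In S1PR4-/- mice 67 members were higher in TFH than in non-TFH cells and 6 lower, where 36.1% of all genes tested were higher and 34.6% lower, and the median was 0.41. Without the non-TFH library with the high sums, 72 members were higher and 6 lower, with a median of 0.47. All 60 members higher in WT mice were among the 67. Lower in both genotypes were Ndufa6, Ndufb4, Ndufb4c, Cox7a2l and Atp5s. Sdha and Ndufaf4 were lower in WT mice and Ndufs7 in S1PR4-/- mice, and Sdha had a difference of -0.05 (FDR 0.374) in S1PR4-/- mice. No genotype by state term passed for these genes, as given below.

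Cox7a2l (ENSMUSG00000024248.14, chr17:83501918-83517330, minus strand) encodes a relative of Cox7a2 that has been linked to supercomplexes of complexes III and IV. Neither its protein nor supercomplexes were measured in these cells, so its RNA level does not show how many supercomplexes they hold. In WT cells its level was 141, 158 and 172 CPM in GC B cells, 83.3, 78.7, 89.6, 80.8 and 89.4 CPM in the non-GC B libraries, 88.2, 95.2 and 98.7 CPM in TFH cells and 135, 148 and 169 CPM in non-TFH cells. GC B and non-TFH cells therefore had the high levels and non-GC B and TFH cells the low ones, with no overlap within a lineage. It was 0.89 higher in GC B than in non-GC B cells (SE 0.067, edgeR FDR 1.92e-07) and 0.74 lower on the log2 scale in TFH than in non-TFH cells (log2 difference -0.74, SE 0.062, FDR 8.51e-08). Of its 31-base words, 16.6% occur elsewhere. Atp5s, coupling factor B, was lower in TFH cells as well (-0.70), with overlapping groups, and did not pass in B cells.

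The difference between the B cell and the T cell shift was tested as the interaction of lineage and state in WT mice. It was positive for 57 members and negative for 0, where 20.3% of all genes tested were positive and 21.4% negative, with a median of 0.41 and a range from -0.14 to 1.56. Of the members 14 exceeded 1.5-fold, against 12.9% of all genes tested in that direction. Positive were 27 of 37 complex I genes, 2 of 4 in complex II, 7 of 8 in complex III, 6 of 10 in complex IV and 13 of 16 in complex V, but 0 of 8 assembly factors. Cox7a2l had the largest term, 1.56 (SE 0.089, edgeR FDR 6.48e-12).

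The next members by this term were accessory subunits of complex I. Ndufa10 followed at 0.94 (SE 0.11), with 119, 123 and 148 CPM in GC B, 65.7, 54.5, 75.9, 77.4 and 65.8 CPM in non-GC B, 108, 110 and 128 CPM in TFH and 107, 117 and 136 CPM in non-TFH cells. It rose in B cells (0.92), while the TFH and non-TFH groups overlapped (-0.08, FDR 0.289). Ndufs5 came next at 0.79 (SE 0.13). The lowest terms were those of Cox7c (-0.14), Atp5d (-0.13) and Ndufaf3 (-0.11), none of which passed.

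**Figure D4:**
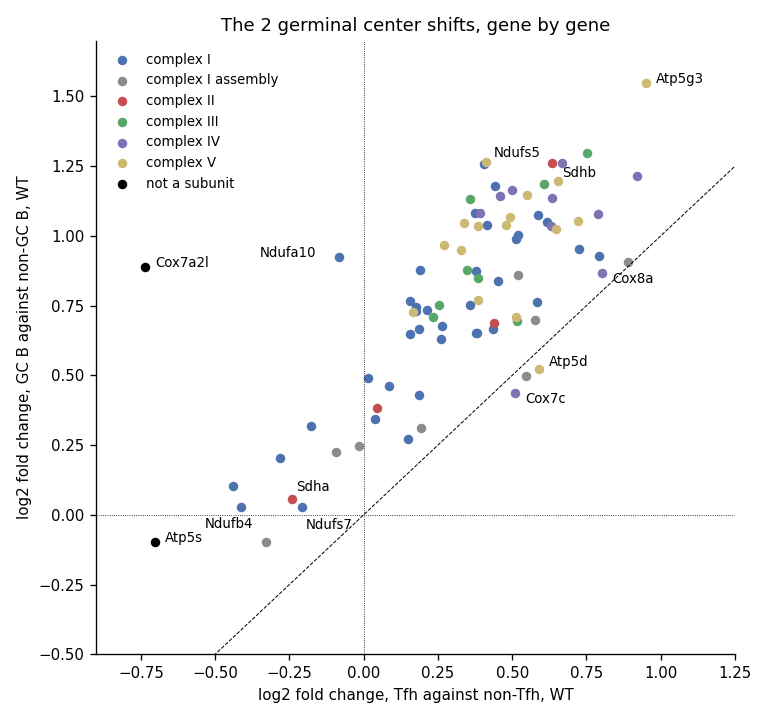
Log2 difference of each member in GC B against non-GC B cells (y axis) plotted against its difference in TFH against non-TFH cells (x axis) in WT mice; each point is 1 of the 85 members, coloured by complex, and the diagonal marks equal values. Of the points 82 lie above the diagonal, with Cox7a2l farthest from it.

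Across the 85 members the 2 shifts ran in parallel (r = 0.742, a description over genes that share libraries and are not independent). In B cells 82 of 85 members had the larger value. The comparison of the lineages locates where they differ. Between WT GC B and WT TFH cells 19 members were higher and 13 lower, where 32.3% of all genes tested were higher and 35.4% lower, with a median of 0.06. Between WT non-GC B and WT non-TFH cells 2 were higher and 49 lower, where 28.1% were higher and 29.2% lower, with a median of -0.29. In that comparison 37 members were lower without overlap, against 24.1% of all genes tested. Called lower were 23 of 37 complex I genes and 12 of 16 complex V genes. The lowest were Cox7a2l (-0.77), Ndufb6 (-0.76) and Ndufa10 (-0.72), and Ndufs8 (0.44) and Atp5s (0.65) were the 2 that were higher. These 5 were chosen after their values were seen. The GC B and TFH comparison and the 2 shifts share libraries.

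Loss of S1PR4 was followed by few or no called differences among the members in any of the 4 populations. In GC B cells 0 were higher and 0 lower (edgeR, and likewise DESeq2 and limma voom), where 0.0153% of all genes tested were higher and 0.0459% lower. In them 2 members had an unadjusted p under 0.05. The median was -0.06, from -0.27 to 0.07, and 72 of the 85 estimates were negative. The median SE of a member was 0.078. In non-GC B cells 0 members were higher and 0 lower in the same tools, where 0.0153% and 0.0383% of all genes were. There 2 members had an unadjusted p under 0.05, and the median was -0.02 (from -0.33 to 0.22, median SE 0.096).

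In TFH cells 0 members were higher and 1 lower in edgeR, where 0.548% of all genes tested were higher and 0.86% lower, and 8 members had an unadjusted p under 0.05. The median was 0.01, from -0.27 to 0.36. The lower gene was Cox7a2l, with 67.5, 75.5 and 87.4 CPM in S1PR4-/- and 88.2, 95.2 and 98.7 CPM in WT TFH cells. The groups did not overlap, and the difference was -0.27 (SE 0.061, edgeR FDR 0.0483). This call sits at the threshold: it was lost when any of 8 of the 12 libraries was left out (S1PR4-/- replicates 1, 4, 5 and 6 and WT replicates 1, 2, 3 and 5, FDR 0.0698 to 0.11), while DESeq2 gave an FDR of 0.00263. DESeq2 also called 3 members higher, the assembly factors Ndufaf2 (0.36, FDR 0.0254) and Ndufaf4 (0.34, FDR 0.00767) and the iron-sulfur subunit Ndufs1 (0.16, FDR 0.0346). Ndufaf4 had 17.7, 19.2 and 22.9 CPM in S1PR4-/- and 13.2, 16.2 and 17.03 CPM in WT TFH cells, without overlap, and an edgeR FDR of 0.0627. Its direction differed between the lineages. It was 0.22 in non-TFH (edgeR FDR 0.444), -0.145 in GC B (FDR 0.985) and -0.33 in non-GC B cells (FDR 0.981). In non-GC B cells the groups did not overlap either.

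Markers of other cells were present in the TFH libraries and differed between the genotypes in their sums. The 12 B cell markers, all detected, summed to 430, 630 and 874 CPM in WT and 375, 490 and 544 CPM in S1PR4-/- TFH libraries, with none of the 12 under 1 CPM in every library of either group. Plasma cell markers summed to 290 to 676 CPM and 241 to 288 CPM, and the proliferation genes to 3768 to 5424 CPM and 4614 to 6418 CPM. Of the plasma cell markers, edgeR called Mzb1 (-4.35, FDR 0.023), Jchain (-3.64, FDR 0.038) and Derl3 (-1.88, FDR 0.0445) lower in S1PR4-/- TFH cells. The only positive estimate among those tested was that of Prdm1 (0.16, FDR 0.551). In S1PR4-/- non-TFH cells Mzb1 was called lower too (-3.77, edgeR FDR 0.016). The myeloid markers reached 423 CPM in S1PR4-/- TFH replicate 6, against 13.6 to 61.8 CPM in the other S1PR4-/- TFH libraries, and this is among the libraries without which the Cox7a2l call was lost. The part of these cells in the Cox7a2l difference was not tested.

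In non-TFH cells edgeR called 0 members higher and 0 lower, where 0.0758% and 0.159% of all genes tested were called, limma voom 0 and DESeq2 1 lower, and 1 member had an unadjusted p under 0.05. That gene was again Cox7a2l, with 122, 128 and 135 CPM in S1PR4-/- and 135, 148 and 169 CPM in WT cells, a difference of -0.23 (SE 0.062) with an edgeR FDR of 0.155 and a DESeq2 FDR of 0.0365. Without S1PR4-/- replicate 1 edgeR called 0 members in either direction, with a median of -0.04, 3 members at an unadjusted p under 0.05 and Cox7a2l at -0.23 (FDR 0.198). The highest S1PR4-/- library (134.8 CPM) lay just under the lowest WT library (135.1 CPM). In B cells the Cox7a2l groups overlapped, at -0.08 (FDR 0.985) in GC B and 0.13 (FDR 0.981) in non-GC B cells. The genotype by state terms called 0 members in B cells, where 0% of all genes tested passed in either direction, and 0 in T cells, where 0% passed as higher and 0.0139% as lower. DESeq2 and limma voom called 0 too, and 1 and 3 members had an unadjusted p under 0.05. Without S1PR4-/- non-TFH replicate 1 edgeR again called 0 members in T cells in either direction, and 6 had an unadjusted p under 0.05.

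**Figure D5:**
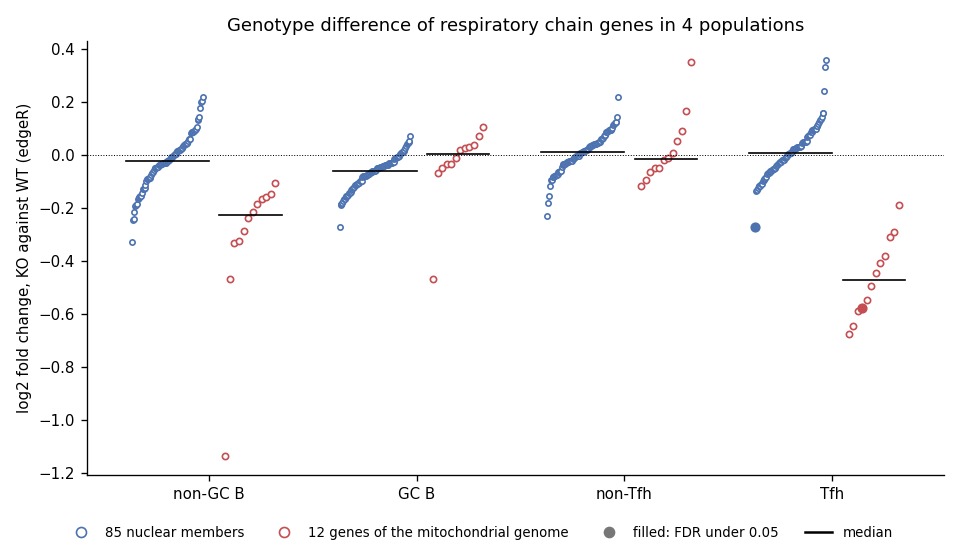
Log2 difference between S1PR4-/- and WT cells (y axis) of the 85 nuclear members and of the genes of the mitochondrial genome other than mt-Nd4l in each of the 4 populations (x axis); each point is a gene, lines mark medians, and filled points passed FDR under 0.05 in edgeR. The nuclear members lie between -0.33 and 0.36 in every population, and the mitochondrial genome genes of TFH cells and of non-GC B cells all lie below 0.

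The genes of the mitochondrial genome, which encode the remaining subunits of complexes I, III, IV and V, did not follow the nuclear members. In WT GC B against non-GC B cells 0 of the 12 tested were higher and 5 lower (median -0.24), where 34.3% of all genes tested were higher and 32.9% lower. In WT TFH against non-TFH cells 0 were higher and 3 lower (median -0.14), where 34.8% were higher and 33.9% lower. The lower counts in WT mice thus lay near the share of all genes. In S1PR4-/- mice 2 were higher and 1 lower in GC B cells (median -0.05), where 33.6% of all genes tested were higher and 31% lower. In S1PR4-/- TFH cells 0 were higher and 10 lower (median -0.54), where 36.1% were higher and 34.6% lower. The counts of these calls depend on single libraries: leaving out 1 library at a time gave 2 to 6 lower genes in WT GC B cells, 1 to 4 in WT TFH cells and 5 to 11 in S1PR4-/- TFH cells, and in S1PR4-/- GC B cells 1 to 4 higher and 1 to 2 lower genes. In S1PR4-/- GC B cells the higher count was 1 without GC B replicate 1, 2, 3, 4 or 6 or non-GC B replicate 2 or 3, 3 without non-GC B replicate 4 and 4 without GC B replicate 5, and the lower count was 2 without GC B replicate 3 or non-GC B replicate 1. Other settings gave 0 to 3 higher and 0 to 2 lower genes there. In WT B cells the count fell to 2 without non-GC B replicate 2 and to 3 without non-GC B replicate 3 or GC B replicate 5. In WT T cells it fell to 1 without TFH replicate 2, 4, 5 or 6 or non-TFH replicate 3, 4 or 5, and in S1PR4-/- T cells to 5 or 6 without TFH replicate 2 or 6 or non-TFH replicate 3 or 6. No mitochondrial genome gene passed the genotype by state term in T cells (smallest edgeR FDR 0.376, mt-Co3). The larger count in S1PR4-/- TFH cells is therefore not a called difference between the genotypes.

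Between S1PR4-/- and WT TFH cells all 13 had negative estimates, with a median of -0.50. Only mt-Co1, a catalytic subunit of complex IV, passed (-0.58, SE 0.12, edgeR FDR 0.035), and 9 had an unadjusted p under 0.05. DESeq2 called 7 lower, and leaving out 1 library at a time gave 0 to 3, with 0 without S1PR4-/- replicate 1, 5 or 6 or WT replicate 1, 2, 3 or 5. Summed, these genes reached 2479, 3233 and 4435 CPM in S1PR4-/- and 4055, 4657 and 5467 CPM in WT TFH cells, so the groups overlapped. In non-TFH cells 0 of 12 were called and the median was -0.02. In non-GC B cells the estimates were negative too, from -0.11 (mt-Co1) to -1.14 (mt-Nd3), other than mt-Nd4l (2.71). None of them passed there, and mt-Atp8 had the smallest unadjusted p (-0.47, edgeR p 0.0104, FDR 0.981). In GC B cells the estimates had both signs, from -0.47 (mt-Nd3) to 0.11 (mt-Co3), and none passed. The libraries were made after oligo-dT capture, which takes up mitochondrial transcripts by their short poly(A) tails.

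Genes around the respiratory chain were described by lists. Of all genes tested, 34.3% were higher and 32.9% lower in WT GC B cells. In WT TFH cells 34.8% were higher and 33.9% lower. The chain genes that the rule leaves out (Cox4i1, Cyc1, Cycs and Ndufb1-ps, all 4 that were tested) rose in WT GC B cells, with Ndufb1-ps at 2.02, cytochrome c (Cycs) at 1.22, Cox4i1 at 1.08 and cytochrome c1 (Cyc1) at 0.58, and 3 of 4 rose in WT TFH cells. All 14 genes of the citrate cycle rose in WT GC B cells (median 0.64), led by Idh2, the NADP-dependent isocitrate dehydrogenase (1.54), with citrate synthase Cs at 0.82. In WT TFH cells 8 rose and 2 fell (median 0.19): Cs rose by 0.65, while Idh2 (-1.20) and Suclg2 (-0.47) fell. Of 79 genes of the mitochondrial ribosome 68 rose and 0 fell in WT GC B cells (median 0.52), and 34 rose and 10 fell in WT TFH cells (median 0.14). That list includes a symbol with -ps, Mrpl23-ps1 (0.26 in GC B and -0.42 in TFH cells). The 30 assembly factors of complexes II to V were mixed, with 10 higher and 5 lower in GC B cells (median 0.17) and 8 and 5 in TFH cells (median -0.03). In neither direction did these counts exceed the shares of all genes. Of 9 uncoupling and antioxidant genes 7 rose and 0 fell in GC B cells (Ucp2 1.10) and 4 rose and 0 fell in TFH cells.

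Regulators of mitochondrial biogenesis were called in both directions. In WT GC B cells 3 of 13 were higher and 7 lower (median -0.22). Of all genes tested 34.3% were higher and 32.9% lower, with a median of 0.01. The higher ones were Tfb1m (0.56), Gabpa (0.53) and Yy1 (0.52). Among the lower ones were the coactivators Ppargc1a (-3.39), Pprc1 (-0.85) and Ppargc1b (-0.54) and the receptor Esrra (-1.13). Nrf1 (-0.07, FDR 0.398) and Tfam, which packages mitochondrial DNA (-0.14, FDR 0.0677), did not pass. In WT TFH cells 1 of 12 was higher, Gabpa (0.37), and 5 were lower (median -0.11). Of all genes tested 34.8% were higher and 33.9% lower there. Among the lower regulators were Ppargc1b (-1.34), Pprc1 (-1.26) and Myc (-1.13). The 16 proliferation genes all rose in both, with medians of 5.95 and 4.20. Between S1PR4-/- and WT cells edgeR called 0 genes of the lists in this and the preceding paragraph in any of the 4 populations. The marker lists, given above, are not part of this count. The other tools were not run on these genes one by one. At most 3 genes of a list had an unadjusted p under 0.05, other than 8 genes of the mitochondrial ribosome and 13 proliferation genes in TFH cells.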

How the data were processed

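RNA was captured with oligo-dT, prepared with the Illumina Stranded Total RNA Prep with Ribo-Zero Plus and sequenced on a NovaSeq. Per the submitters' processing notes, the authors used Cutadapt 2.10 for trimming, STAR 2.5.3 for alignment to mm10, Picard for duplicates and RSEM 1.3.0 for gene quantification. They deposited expected counts per gene, scaled for neither depth nor length, of which 8.83% are not whole numbers, so they were rounded here. RSEM divides reads shared by similar genes. Symbols follow GENCODE M21, which gave identifiers and coordinates, while the methods name M30. No sample was left out, and the samples were grouped by their labels.

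Each pair of groups was fitted in edgeR 4.0.16 (R 4.3.3; filterByExpr, TMM, quasi-likelihood test), after tests on simulated data, with Benjamini-Hochberg adjustment over all genes tested. A gene rose or fell at FDR under 0.05, and standard errors come from the F statistic. The 85 members passed the filter in every comparison. DESeq2 1.42.0, limma 3.58.1 (voom), RLE and total-count scaling, no filter, all 8 groups in one fit, a replicate block and refits without single libraries were run as alternatives. Levels are TMM-normalized CPM. The labels do not tie samples to mice, so p-values measure the spread between samples. Replicate numbers were shared between populations. Deviations of same-numbered TFH and non-TFH libraries from their group means correlated at 0.129 to 0.238 in all 6 S1PR4-/- pairs. All 6 correlated best with their own number, which did not hold in every pair of the other groups. Same-numbered S1PR4-/- and WT non-TFH libraries, which cannot share a mouse, correlated at 0.00499 to 0.269 (mean 0.141). Of these, 3 of 6 correlated best with their own number. Correlations of this size therefore do not show that same-numbered libraries come from the same mouse. No pair of libraries agreed within sampling noise. At library totals of 26299429 counts and more, counting error is small for all members but the lowest.

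The members and the lists of other genes (citrate cycle, mitochondrial ribosome, assembly factors, biogenesis regulators, antioxidant and proliferation genes, markers of TFH, GC B, B, plasma and myeloid cells) were chosen with earlier results of these data known. Genes were named by rule: the 2 highest and 2 lowest of each complex and of the assembly factors in each WT comparison of a GC population, all Sdh and c subunit genes, the Cox isoform pairs, members called by genotype or genotype by state, and the 3 largest differences between the lineages in each direction.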

Additional observations from a re-analysis of the deposited data

Results flagged for a closer look

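Some values stood apart from the rest of their group by Dixon's test (14 of 192 group values tested, where chance flags about 1 in 20). Of these, 11 belonged to S1PR4-/- non-TFH replicate 1. Its summed level was 2965 CPM for complex I (others 2281 to 2427), 1215 CPM for complex II (955 to 1032), 1277 CPM for complex III (936 to 1020), 814 CPM for complex IV (619 to 688), 4319 CPM for complex V (3582 to 3732) and 10590 CPM for all subunits (8445 to 8878). Among single genes it was high for Cox5a (84.2 CPM, others 65.7 to 71.3), Sdhb (254 CPM, others 177 to 205), Sdhd (161 CPM, others 122 to 130), Uqcrc1 (633 CPM, others 435 to 485) and Ndufs5 (43.6 CPM, others 29.1 to 34.4). The same library had the highest sum of proliferation genes in its group, 1199 CPM. Its sums of TFH, GC B and plasma cell markers were the highest of the group too. The part of these in its chain genes was not tested.

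The other 3 were single genes. Atp5g1 was low in WT non-GC B replicate 3 (53.5 CPM, others 58.4 to 59.0). Cox6b1 was high in S1PR4-/- GC B replicate 4 (203 CPM, others 149 to 169) and in WT TFH replicate 1 (158 CPM, others 135 to 139).

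The difference of the GC shift between B and T cells was tested and passed for 57 members, with Cox7a2l (1.56), Ndufa10 (0.94) and Ndufs5 (0.79) at the top of the list.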

How the results depend on the processing

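Most values kept their direction and their call. Of 1145 values of named members under the alternatives 1108 kept both, 20 lost and 2 gained the call, and 15 changed sign, none of them called. Those 15 were Ndufb4 in B cells (-0.068 by total counts, -0.037 with all 8 groups, -0.11 to 0.096 without single libraries), Ndufs7 in B cells (-0.068, -0.038 and -0.021 to 0.077 in the same order), Sdha in B cells (-0.037 and -0.0077), Sdhc in T cells (-0.0055 by total counts, -0.0072 to 0.096 without single libraries) and Ndufaf8 in T cells (-0.18 to 0.0044 without single libraries). Total-count scaling moved the median of all genes by over 0.1 in S1PR4-/- GC B against non-GC B cells (-0.12) and in WT non-GC B against non-TFH cells (-0.14), and the members' medians to 0.63 and -0.43. It moved 8 of 64 group sums by more than their SD.

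Among the 62 members with at most 10% shared words (chosen after seeing the data), 4 were lower in WT and 3 in S1PR4-/- TFH against non-TFH cells and 12 were higher in GC B against TFH cells. Between genotypes in TFH cells, the count of lower members was 0 with no filter, with all 8 groups and among those 62, and 0 to 1 without single libraries, and that of higher members was 3 in DESeq2 and 1 with all 8 groups. DESeq2 called 1 lower member in non-TFH cells. Refits without single libraries gave 76 to 78 higher members in WT GC B cells, 70 to 73 in S1PR4-/- GC B cells, 56 to 66 in WT TFH cells and 64 to 72 in S1PR4-/- TFH cells.

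With the replicate block, 76 members were higher in WT GC B cells, 71 in S1PR4-/- GC B cells and 66 in WT and 66 in S1PR4-/- TFH cells. Genes of the mitochondrial genome called lower were 1 in WT TFH against non-TFH cells and 3 between genotypes in TFH cells, and in S1PR4-/- GC B cells 1 was higher and 0 lower. Between genotypes replicates share only a number: in TFH cells 2 of 6 same-numbered pairs correlated over 0.1 and 1 of 6 libraries best with its own number, so the block value of Cox7a2l there (-0.28, FDR 0.0471) is not a paired result. No call among named members changed with the block. In WT TFH cells 4 of 6 libraries correlated best with their own number.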
